A study of Mus musculus with 106 samples.

Results

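The chow-fed livers of WSB/EiJ mice were compared with the chow-fed livers of 8 other inbred strains, by RNA sequencing of bulk liver. The 6 WSB/EiJ chow libraries (3 females and 3 males, 1 mouse each) were taken by their labels from a series of 106 libraries, and the comparison used 47 chow libraries of A/J, C57BL/6J, 129S1/SvImJ, NOD/ShiLtJ, NZO/HlLtJ, CAST/EiJ, PWK/PhJ and DBA/2J. The series covers both sexes of these 9 strains on a chow diet (CD, 6% of energy from fat, 20% from protein and 74% from carbohydrate) or a high-fat diet (HFD, 60% fat, 20% protein and 20% carbohydrate), begun at 8 weeks of age and kept until the liver was taken at 21 weeks. All 9 strains are unmodified inbred strains that received no treatment other than diet, were imported and then bred in 1 animal house, had free access to food, and were killed in the morning with saline perfusion of the body before the liver was removed. The groups hold 3 mice per strain, sex and diet, except the 129S1/SvImJ chow females, of which 2 were used, and NZO/HlLtJ males fed HFD, of which there was 1. One library labelled as a 129S1/SvImJ chow female was left out by the rule. Strains entered the programme in staggered cohorts, so that strain and cohort cannot be told apart.

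WSB/EiJ is a wild-derived inbred strain of the western house mouse, Mus musculus domesticus, and is known for a lean body and for resistance to diet-induced obesity. CAST/EiJ and PWK/PhJ are wild-derived strains of other subspecies, while the remaining 6 are classical laboratory strains. The liver makes and exports fatty acids, cholesterol, bile acids and plasma proteins, and it oxidises and conjugates drugs and steroids. Many of its genes differ between males and females because the pituitary releases growth hormone in different temporal patterns in the sexes.

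Counts assigned to genes ran from 48536194 to 54993544 in the WSB/EiJ chow libraries and from 38773478 to 63341708 in the other chow libraries. Reads that aligned to more than 1 place made up 19.5% to 24.8% of the WSB/EiJ libraries and 13.4% to 26.5% of the others. Levels are given as CPM, counts scaled to library size with TMM factors, and differences as log2 fold changes of WSB/EiJ over the mean of the 8 other strains, females and males weighted equally, with the standard error (SE) and the p-value of edgeR's quasi-likelihood test adjusted over all 14330 genes by the Benjamini-Hochberg method. The mean of the 8 strains was taken on the log2 scale, where a strain at a low level pulls it down strongly. A gene can thus be higher by log2 fold change at a lower mean CPM. Cyp2b13 was such a gene (log2 fold change 1.75, at 40.0 CPM against 74.2 CPM). A gene was called at an adjusted p under 0.05. CPM values of different genes are not on one scale, because they are not divided by gene length. Replicate numbers follow the order of deposit and only name a library.

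Some libraries stood apart from the rest. WSB/EiJ female 2 and male 3 differed from the rest of their groups by a median of 0.402 and 0.401 on the log2 scale, and C57BL/6J male 3 by 0.412, against at most 0.298 in every other chow library. The deviations of female 2 and male 3 from the other WSB/EiJ mice of their sex correlated over 9846 genes of at least 4 CPM (Pearson r = 0.614, a description across genes, which are not independent). List counts and called log2 fold changes on chow over both sexes that changed by over 1.5 times without these 2 libraries, or lost their call, are given both ways. The values without them are not given for Igtp, H2-Aa, Hal, Gls2, Cyp2f2, Cyp2b13, Mup2, Mup9 and Mup18. Whether the counting used strand is not given in the sources used here, so that reads of a gene and of an overlapping opposite-strand gene may be mixed. Of the genes described below this applies to Zfp738, Cab39l, Kcnab1, H2-Eb1, Igf1, Pparg, G0s2, Apoa4, Hamp, Hamp2, Glul, Hspa1a and Hsd3b5, among others.

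In WSB/EiJ chow livers Sult1e1 and Cwc22 were far above the levels of every other strain, and Nxpe2, H2-Eb1, Pla2g16 and Scd1 far below them. Most listed genes of the interferon response, lymphocytes, fatty acid and sterol synthesis and conjugation were lower, with counts given below. Of 14330 genes, 8491 (59.3%) were called between WSB/EiJ and the other strains on chow. Of these, 4534 (31.6% of all genes tested) were higher and 3957 (27.6%) lower in WSB/EiJ. The median size of a called change was 0.54 on the log2 scale, with a median over all genes of 0.015. A change of at least 1 on the log2 scale was met by 2004 called genes (14.0%), 811 higher (5.66%) and 1193 lower (8.33%). WSB/EiJ had the highest mean of the 9 strains in both sexes in 1354 called genes (9.45%) and the lowest in 1187 (8.28%). In 159 called genes (1.11%) all 6 WSB/EiJ chow libraries lay outside the range of all 47 others, 83 above (0.579%) and 76 below (0.530%). The same contrast for each other strain, which shares libraries with this one, gave 3803 called genes for 129S1/SvImJ to 8654 for CAST/EiJ and 32 to 469 genes outside the range, so that WSB/EiJ came after CAST/EiJ in the former count and after CAST/EiJ and PWK/PhJ in the latter.

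These p-values measure the spread between mice of 1 strain and sex, not the spread between strains. With the strain as the unit, 9 strain means of log2 CPM tested by limma, 24 genes were called, and 21 of them were among the 159 outside the range. They included Cwc22 (adjusted p = 7.63e-06) but not Sult1e1, H2-Eb1, Gbp3 or Scd1, whose adjusted p-values in that limma fit were 0.104, 0.144, 0.171 and 0.321. None of the 688 tested genes of the lists described below was called in that limma fit, and 142 of them (20.6%) had an unadjusted p under 0.05, as did 1759 of all genes (12.3%). The lists were chosen with earlier results of these data known, so that the first share is not independent of the data. Without female 2 and male 3, 5998 genes were called, 5542 of them among the 8491 and in the same direction. The high-fat diet gave a second set of mice: 9339 genes (65.2%) were called there, 7308 with the same direction as on chow, which is 86.1% of the chow calls and 78.3% of the high-fat calls. All 159 genes outside the range on chow were called in the same direction on the high-fat diet, and 98 of them again lay outside the range of all other libraries.

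**Figure D1:**
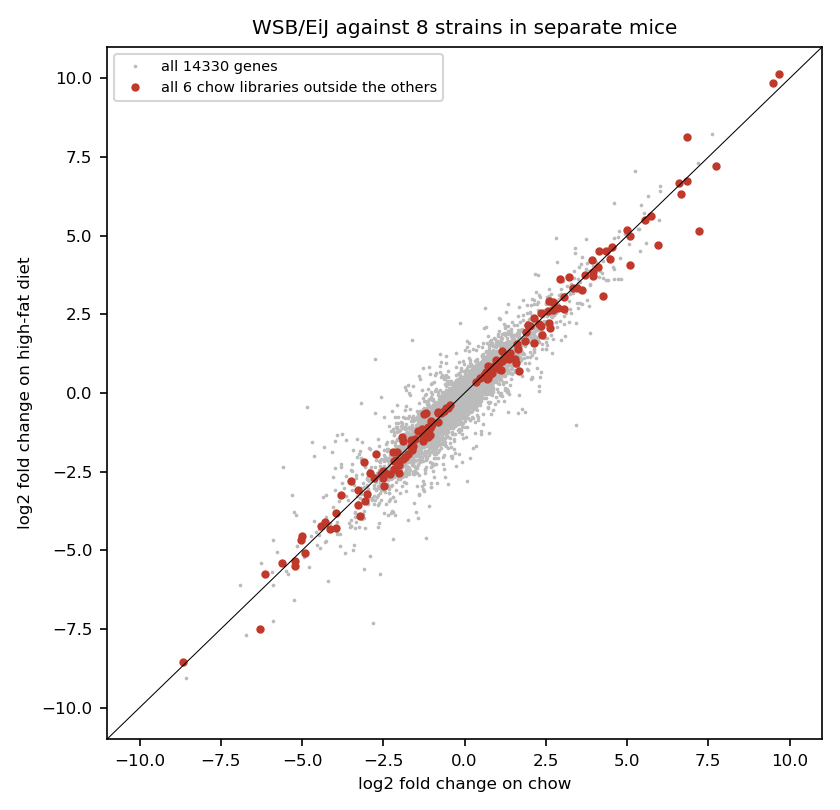
Log2 fold change of WSB/EiJ over the mean of 8 other strains in chow-fed mice (x axis) and in separate high-fat-fed mice (y axis), 1 point per gene for all 14330 genes, with the line of equal values. The 159 genes whose 6 WSB/EiJ chow libraries lay outside all other chow libraries (red) have the same sign on both diets.

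Among protein-coding genes outside the range, the highest log2 fold change belonged to Sult1e1, the oestrogen sulfotransferase, which inactivates oestrogens by sulfation. Its level was 263, 464 and 317 CPM in the females and 33.5, 26.7 and 24.7 CPM in the males, against 0 to 7.67 CPM with a median of 0.333 in the other strains (log2 fold change 7.74 ± 0.20, adjusted p = 6.05e-30). Every WSB/EiJ mouse was above every other mouse, and the WSB/EiJ females were above the WSB/EiJ males. 129S1/SvImJ came next, at a mean of 3.51 CPM.

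Cwc22, a splicing factor of the spliceosome that is also needed to load the exon junction complex, was at 307, 330.5 and 339 CPM in the females and 268, 279.6 and 248 CPM in the males, against 5.71 to 13.1 CPM with a median of 9.13 elsewhere (log2 fold change 5.0 ± 0.042, adjusted p = 6.72e-48). The 6 values lay close together, the other 8 strains had means between 7.08 and 10.6 CPM, and the log2 fold change was 5.17 on the high-fat diet. As background, WSB/EiJ is known to carry R2d2, an amplified segment of chromosome 2 that holds extra copies of Cwc22, and a count table with 1 Cwc22 entry cannot tell copies apart. Cenpm, a subunit of the centromere's constitutive protein network, was at 86.2, 52.6 and 102 CPM in the females and 73.2, 55.2 and 19.1 CPM in the males, against 0.592 to 7.39 CPM with a median of 1.72 (log2 fold change 5.08 ± 0.16, adjusted p = 2.02e-27).

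The serine protease gene Tmprss2 was at 79.0, 205 and 76.6 CPM in the females and 38.5, 34.2 and 90.4 CPM in the males, against 0.912 to 31.3 CPM with a median of 13.9 (log2 fold change 2.87 ± 0.18, adjusted p = 8.14e-17). Female 2 was the highest of the 6, and without female 2 and male 3 the log2 fold change was 2.27. Cab39l, which encodes a scaffold of the LKB1 kinase complex, was at 326, 988 and 151 CPM in the females and 129, 94.8 and 628 CPM in the males, against 48.5 to 84.8 CPM with a median of 58.7. All 6 were above the others, but female 2 and male 3 were highest by far, and the log2 fold change of 2.62 became 1.43 without them. Kcnab1, a potassium channel beta subunit, was at 8.43, 53.0 and 10.2 CPM in the females and 2.72, 1.75 and 7.21 CPM in the males, against 0.178 to 1.30 CPM with a median of 0.583, with a log2 fold change of 3.96 that became 2.88 without the same libraries.

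Among other protein-coding genes above the range, Mael, known from the silencing of transposons in the germ line, was at 2.17, 2.08 and 0.701 CPM in the females and 1.33, 1.32 and 1.21 CPM in the males, against 0 to 0.150 CPM with a median of 0. Summed counts of Mael were 476 in the 6 WSB/EiJ libraries and 54 in the 47 others, a ratio of 68.0 with a 95% interval of 51.2 to 91.8 for counting error only. Gspt2, a translation termination factor on the X chromosome, Pde6h, a phosphodiesterase inhibitor of cone cells, Fez1, a kinesin adaptor, and Eif4ebp3, a repressor of cap-dependent translation, had log2 fold changes of 4.47, 4.36, 3.94 and 2.95. Hmga1b, an intronless copy of a chromatin protein gene whose reads are hard to tell from its parent's, was at 3.06. Of all genes above the range, 56 were protein coding, 7 lincRNAs and 14 pseudogenes, and below it 64, 4 and 4, in a table of 12757 protein-coding genes and 593 pseudogenes.

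**Figure D2:**
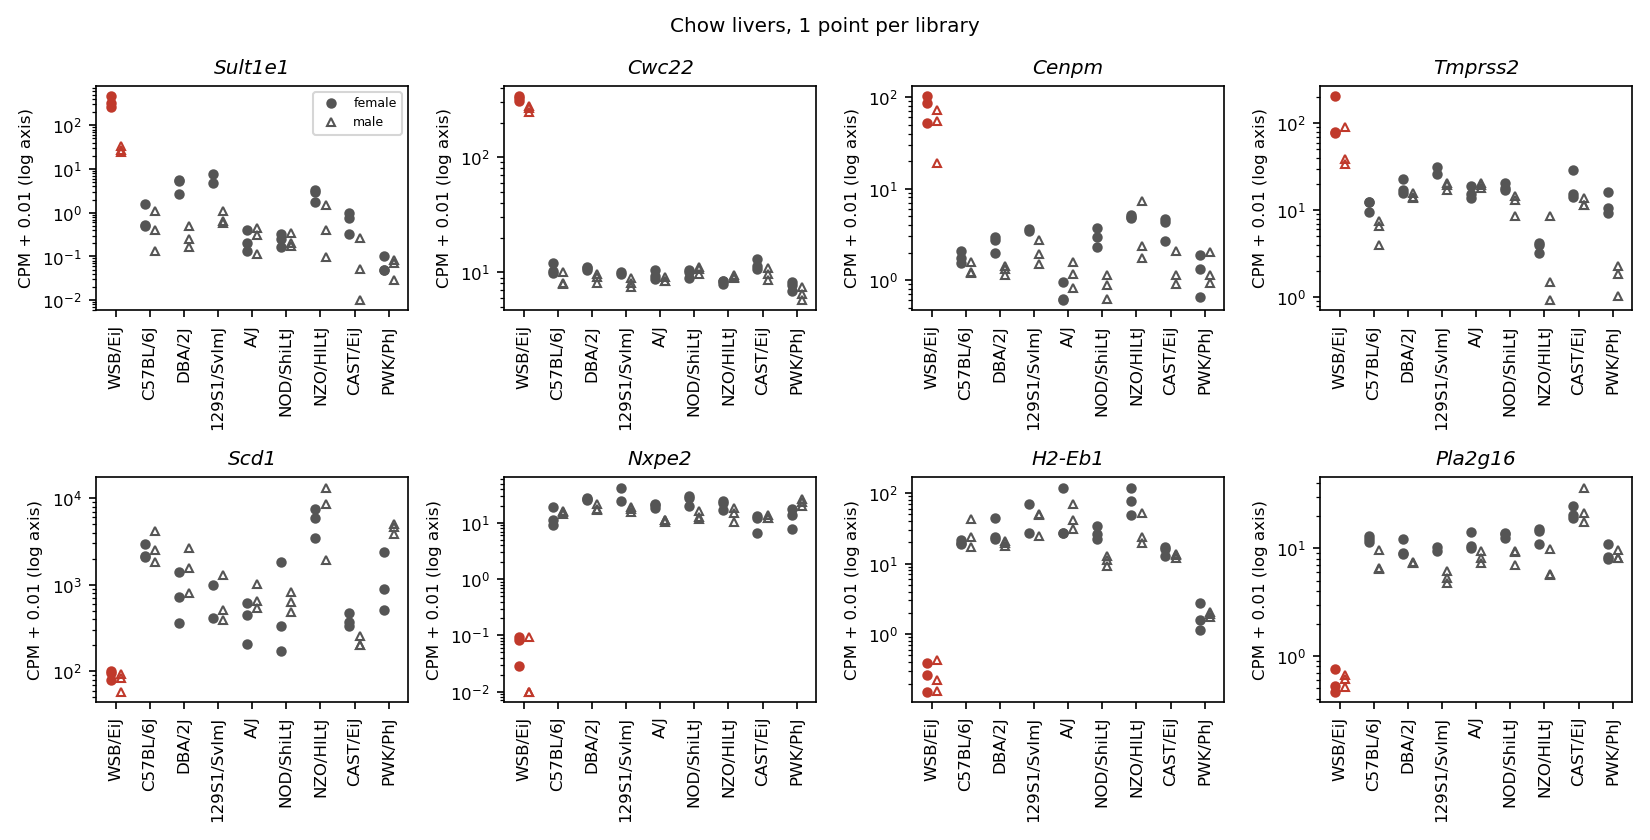
CPM (log axis, 0.01 added) of 8 genes in each chow library by strain, females as circles and males as triangles, WSB/EiJ in red. In each panel the 6 WSB/EiJ libraries lie above (upper row) or, for Scd1, Nxpe2, H2-Eb1 and Pla2g16, below all 47 other libraries.

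The lowest log2 fold change among the genes below the range was that of Nxpe2, a member of the neurexophilin and PC-esterase domain family. It was at 0.0181, 0.0847 and 0.0719 CPM in the females and 0, 0.0853 and 0 CPM in the males, against 6.67 to 42.2 CPM with a median of 16.8. The 14 summed counts of the 6 WSB/EiJ libraries corresponded to a level 401-fold lower than in the others, with a 95% interval of 239 to 733 for counting error only, and it overlaps Nxpe4 on the opposite strand. Zfp738, a zinc finger gene, was at 0.0543, 0.0508 and 0.144 CPM in the females and 0.0221, 0.107 and 0.118 CPM in the males, against 1.59 to 4.69 CPM with a median of 2.47 (log2 fold change -4.90 ± 0.22, adjusted p = 8.82e-22). Both were also called with the strain as the unit, with adjusted p-values of 7.63e-06 and 0.000592 in limma.

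Scd1, the stearoyl-CoA desaturase that makes monounsaturated fatty acids from saturated ones was at 101, 79.6 and 95.2 CPM in the females and 92.2, 58.4 and 83.8 CPM in the males, against 172 to 13204 CPM with a median of 904 (log2 fold change -3.81 ± 0.44, adjusted p = 1.87e-09). The 6 WSB/EiJ mice lay below every other mouse, the nearest strain mean was that of CAST/EiJ at 308 CPM, and NZO/HlLtJ was highest at 6780 CPM. On the high-fat diet the log2 fold change was -3.24 with overlapping libraries. Pla2g16, a phospholipase of lipid droplets and peroxisomes that is prominent in adipose tissue, was at 0.742, 0.457 and 0.521 CPM in the females and 0.597, 0.661 and 0.504 CPM in the males, against 4.77 to 36.5 CPM with a median of 9.53 (log2 fold change -4.15 ± 0.17, adjusted p = 2.86e-23), and its nearest strain mean was 7.63 CPM in 129S1/SvImJ.

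Sult1c2, a sulfotransferase of small phenols, was at 0.0724, 0.102 and 0.162 CPM in the females and 0, 0.171 and 0 CPM in the males, against 0.654 to 15.4 CPM with a median of 3.84. From summed counts this was 58.0-fold lower (95% interval 39.9 to 88.1, counting error only). Pilrb1, an activating immune receptor, had at most 3 counts in any WSB/EiJ library, a level 28.6-fold lower by summed counts (16.0 to 57.5). The log2 fold changes of Lilr4b, an inhibitory receptor of myeloid cells, Cyp4f16, a fatty acid hydroxylase, and Pdzrn3, a ubiquitin ligase, were -5.22, -5.02 and -3.28. Receptors and hydroxylases of these kinds belong to families of close paralogs, so that the split of reads among members is uncertain.

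Neighbouring genes shared the pattern in 5 places (coordinates of GRCm38 from GENCODE M21, since the build of the counting is not given in the sources used here). How many such places would arise at random was not worked out. Whether neighbouring annotated genes share transcripts or reads was not tested. The longest run held 3 tested genes on chromosome 15 between positions 82229333 and 82260753: Gm49503, Cenpm and 1500009C09Rik, all above the range, with log2 fold changes of 4.26, 5.08 and 7.21. The last of them was at 3.84, 11 and 2.59 CPM in the females and 1.02, 1.15 and 28.7 CPM in the males, so that male 3 and female 2 were highest, and its log2 fold change was 5.16 without them. Pairs above the range were 0610043K17Rik with Gm12798 on chromosome 4 (101353783 to 101407856; 2.61 and 4.54) and Gm44172 with Gm44186 on chromosome 6 (71451992 to 71466062; 6.66 and 6.59). Pairs below it were Gm20300 with Hint3, a nucleotide hydrolase gene, on chromosome 10 (30603195 to 30629632; -1.26 and -2.58), and Gm44250 with Pon3, a lactonase bound to high-density lipoprotein, on chromosome 6 (5216258 to 5256286; -2.21 and -1.89). Pon3 was at 15.9, 9.71 and 10.7 CPM in the females and 12.7, 17.1 and 13.1 CPM in the males, against 30.2 to 68.1 CPM with a median of 52.6, with no overlap.

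Most listed genes induced by interferon were lower in WSB/EiJ. Interferons are cytokines that switch on antiviral genes through STAT and IRF transcription factors. Of 40 tested genes of a list of 42, 30 were lower (27.6% of all genes were) and 2 higher (31.6% of all), with a median log2 fold change of -1.19 against 0.015 over all genes. Without female 2 and male 3 these counts were 27 and 2, in a fit that called 20.6% of all genes lower and 21.3% higher, and on the high-fat diet 32 and 1, where 31.2% of all genes were lower and 33.9% higher. The shares of all genes, 27.6% lower and 31.6% higher, or 20.6% and 21.3% without the pair, are the background of every list below. WSB/EiJ was the lowest strain in both sexes in 5 of the 40 genes. The median was -1.59 in females and -0.68 in males. The difference between the sexes was called in 1 of the 40 genes, where 1.22% of all genes were.

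Gbp3, a guanylate-binding GTPase that acts against intracellular microbes, was at 0.525, 0.356 and 0.665 CPM in the females and 0.641, 1.19 and 0.504 CPM in the males, against 1.42 to 24.0 CPM with a median of 6.66 (log2 fold change -3.28 ± 0.30, adjusted p = 4.29e-12), with no overlap. Mx1, an antiviral GTPase, was at 0.109, 0.102 and 0.144 CPM in the females and 0.575, 1.0452 and 0.0336 CPM in the males, against 0.542 to 13.8 CPM with a median of 1.81, and the 3 females with male 3 lay below all other mice while males 1 and 2 did not (log2 fold change -3.23 ± 0.37, adjusted p = 1.12e-09). Irgm1, an immunity-related GTPase, was at 2.21, 1.35 and 1.73 CPM in the females and 2.94, 2.88 and 1.68 CPM in the males, against 1.29 to 39.1 CPM with a median of 14.8 (log2 fold change -2.57 ± 0.23, adjusted p = 1.98e-12). The 3 WSB/EiJ males lay below all other males, and the females within the low end of the range. The chemokine Cxcl9, which draws T cells, had a log2 fold change of -2.66.

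The 250 bases before the annotated start of 3 of these genes are shown because the list is defined by a response that acts through this region. They are RefSeq sequences of GRCm38.p6, the C57BL/6J reference and not WSB/EiJ sequence, and capitals mark the letters GAAANNGAAA of the interferon-stimulated response element, read on either strand and including overlapping copies. Irgm1 lies on the minus strand and the others on the plus strand. Igtp, another immunity-related GTPase (log2 fold change -1.55), was added after its value was seen.
Gbp3, chr3:142559794-142560043: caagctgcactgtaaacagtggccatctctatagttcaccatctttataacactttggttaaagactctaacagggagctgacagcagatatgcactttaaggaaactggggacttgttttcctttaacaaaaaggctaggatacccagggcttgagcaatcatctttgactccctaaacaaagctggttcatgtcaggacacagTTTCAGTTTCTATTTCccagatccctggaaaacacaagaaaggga
Irgm1, chr11:48871421-48871670: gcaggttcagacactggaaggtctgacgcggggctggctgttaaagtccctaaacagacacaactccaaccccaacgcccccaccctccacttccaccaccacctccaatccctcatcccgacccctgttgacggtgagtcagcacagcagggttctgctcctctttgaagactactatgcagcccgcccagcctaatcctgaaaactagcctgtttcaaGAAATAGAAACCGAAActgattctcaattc
Igtp, chr11:58199306-58199555: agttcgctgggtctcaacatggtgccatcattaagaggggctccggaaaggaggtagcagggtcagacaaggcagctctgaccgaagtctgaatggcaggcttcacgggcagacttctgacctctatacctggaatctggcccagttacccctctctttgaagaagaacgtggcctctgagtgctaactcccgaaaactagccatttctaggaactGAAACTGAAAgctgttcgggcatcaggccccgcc
The nearest copy began 39, 24 and 34 bases before the start. These letters were found in 19 of the 31 listed genes with a promoter sequence (61.3%), in 15 of the 23 that were lower in WSB/EiJ (65.2%), in 3.46% of all 27025 promoters and in 3.37% of those of tested genes. A match describes the sequence and is not evidence of a bound site.

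Genes of antigen presentation moved in both directions. Class II molecules show peptides to helper T cells and class I molecules show them to cytotoxic T cells. Of 25 listed genes 14 were lower and 6 higher, with a median of -0.39, and without female 2 and male 3 the counts were 14 and 7. Of the 25, 3 lay below the range of all other libraries. H2-Eb1, the beta chain of the class II molecule I-E, was at 0.380, 0.254 and 0.144 CPM in the females and 0.420, 0.149 and 0.219 CPM in the males, against 1.15 to 118 CPM with a median of 22.1 (log2 fold change -6.29 ± 0.40, adjusted p = 1.31e-16). PWK/PhJ was next lowest, at a mean of 1.87 CPM, and the other 7 strain means ran from 14.2 CPM in CAST/EiJ to 56.5 CPM in NZO/HlLtJ.

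H2-Ab1, the beta chain of the class II molecule I-A, was at 6.35, 4.27 and 4.62 CPM in the females and 11.2, 8.87 and 5.01 CPM in the males, against 12.1 to 169 CPM with a median of 30.8 (log2 fold change -2.47 ± 0.26, adjusted p = 2.46e-10), again with no overlap. H2-DMb1, part of the complex that loads peptides onto class II molecules, had a log2 fold change of -2.0. H2-Ea-ps was called higher against the mean on the log2 scale (2.16), but its adjusted p was 0.855 in limma with the strain as the unit. It was at 6.08, 4.25 and 5.56 CPM in the females and 9.04, 8.89 and 5.33 CPM in the males, against 0 to 82.8 CPM with a median of 7.12. The 4 strains 129S1/SvImJ, PWK/PhJ, NOD/ShiLtJ and C57BL/6J had means of 0.0598 to 0.147 CPM, and the other 4 had means of 9.00 to 44.0 CPM, above the WSB/EiJ level of 6.53 CPM. This locus, the alpha chain partner of H2-Eb1, is annotated as a pseudogene on the reference haplotype and is known to be intact in some strains. H2 genes are highly polymorphic, and how many WSB/EiJ reads of these genes failed to align was not tested.

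The 250 bases before the start of H2-Eb1 and H2-Aa, the alpha chain of I-A (log2 fold change -1.79, added after its value was seen), carry the letters CTGATTGG, the Y box of class II promoters, in capitals. H2-Eb1 is on the plus strand and H2-Aa on the minus strand of GRCm38.p6.
H2-Eb1, chr17:34305617-34305866: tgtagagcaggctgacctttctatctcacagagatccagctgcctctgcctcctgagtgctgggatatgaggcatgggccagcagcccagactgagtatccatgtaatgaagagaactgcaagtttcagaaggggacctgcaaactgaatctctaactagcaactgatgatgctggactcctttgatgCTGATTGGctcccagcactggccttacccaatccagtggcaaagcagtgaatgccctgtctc
H2-Aa, chr17:34287824-34288073: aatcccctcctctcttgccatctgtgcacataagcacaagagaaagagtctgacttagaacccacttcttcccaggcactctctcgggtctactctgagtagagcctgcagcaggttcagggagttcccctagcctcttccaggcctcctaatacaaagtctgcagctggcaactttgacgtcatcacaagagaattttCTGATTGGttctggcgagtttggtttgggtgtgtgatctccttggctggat
The letters began 62 and 51 bases before the start, and on either strand they occurred in 8 of the 18 listed genes with a promoter sequence (44.4%), in 3 of the 10 that were lower (30.0%), in 4.43% of all promoters and in 5.89% of those of tested genes.

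Markers of lymphocytes were lower in all 12 listed genes that were tested, of a list of 17. In bulk liver, fewer cells of a type and less RNA per cell cannot be told apart. The median was -2.01, WSB/EiJ was the lowest strain in both sexes in 7 of the 12, and without female 2 and male 3, 11 of 12 were lower. Their summed level was 5.50 to 16.9 CPM in WSB/EiJ (median 8.54) and 9.60 to 68.5 CPM in the other chow libraries (median 33.1), so that the ranges overlapped. The constant chain gene Igkc and the joining chain gene Jchain, products of antibody-secreting cells, had log2 fold changes of -2.43 and -2.37. Igkc was at 0.651, 0.457 and 0.647 CPM in the females and 3.58, 0.853 and 0.437 CPM in the males, against 1.30 to 12.8 CPM with a median of 5.39 (log2 fold change -2.43 ± 0.28, adjusted p = 1.21e-09). Male 1 was the highest of the 6 for both, at 3.58 and 1.57 CPM.

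Of 17 markers of Kupffer cells, the resident macrophages of liver sinusoids, and of other macrophages, 8 were lower and 3 higher (median -0.55; 8 and 3 also without female 2 and male 3). Their summed level was 311 to 441 CPM against 212 to 1506 CPM. Timd4, a receptor for dead cells on resident Kupffer cells, was at 1.95, 1.78 and 1.87 CPM in the females and 1.72, 2.39 and 1.48 CPM in the males, against 1.99 to 22.4 CPM with a median of 6.38 (log2 fold change -1.87 ± 0.18, adjusted p = 1.59e-11), and only the male 2 value reached the range of the others. Gpnmb and Trem2, known from lipid-associated macrophages, were higher, with log2 fold changes of 1.66 (1.08 without female 2 and male 3) and 1.048. Of 7 blood cell genes 4 were lower, but only 1 without female 2 and male 3, and the erythroid haem synthesis gene Alas2 was at 2.35, 0.949 and 2.55 CPM in the females and 12.2, 16.3 and 3.75 CPM in the males, against 1.1 to 179.8 CPM with a median of 9.76. Of 10 granulocyte markers 2 were higher (20%) and 3 lower (30%), shares below or near those of all genes, and without the same libraries 1 was higher and none lower. The summed level of these markers was 17.0 to 566 CPM in WSB/EiJ (median 63.5) and 2.31 to 1937 CPM in the others (median 9.23). The higher genes were Lcn2 (log2 fold change 3.00) and Mmp8 (2.215, and 1.43 without female 2 and male 3, no longer called). The cathelicidin gene Camp was among the lower genes. It had 1 count in the 6 WSB/EiJ libraries against 729 in the 47 others, and was not called without female 2 and male 3 (adjusted p = 0.0542). The part of cell composition in the interferon and antigen presentation results was not tested.

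Markers of the hepatocyte itself were present at high levels, with a summed level of 75326 to 161080 CPM against 79920 to 199520 CPM in the others. Of 10 such genes 5 were higher and 4 lower. Ttr, which carries thyroxine and retinol-binding protein, had a log2 fold change of -1.35, and Hnf4a, a transcription factor that sets hepatocyte identity, one of 0.54 (0.34 without female 2 and male 3). Of 18 stellate cell and matrix genes 8 were higher and 2 lower, with Ecm1 at 1.08 and Col3a1 at -1.15. Of 15 endothelial genes 7 were higher and 3 lower, with Stab1 at 0.76 and Lyve1, a hyaluronan receptor of sinusoids, at -1.50. None of 8 cholangiocyte genes was higher and 2 were lower, Sox9 at -1.22 and Spp1 at -0.78. The single pancreas gene that was tested was not called. Of 6 white adipose genes, 3 were lower and 1 higher, or 3 and none without female 2 and male 3.

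**Figure D3:**
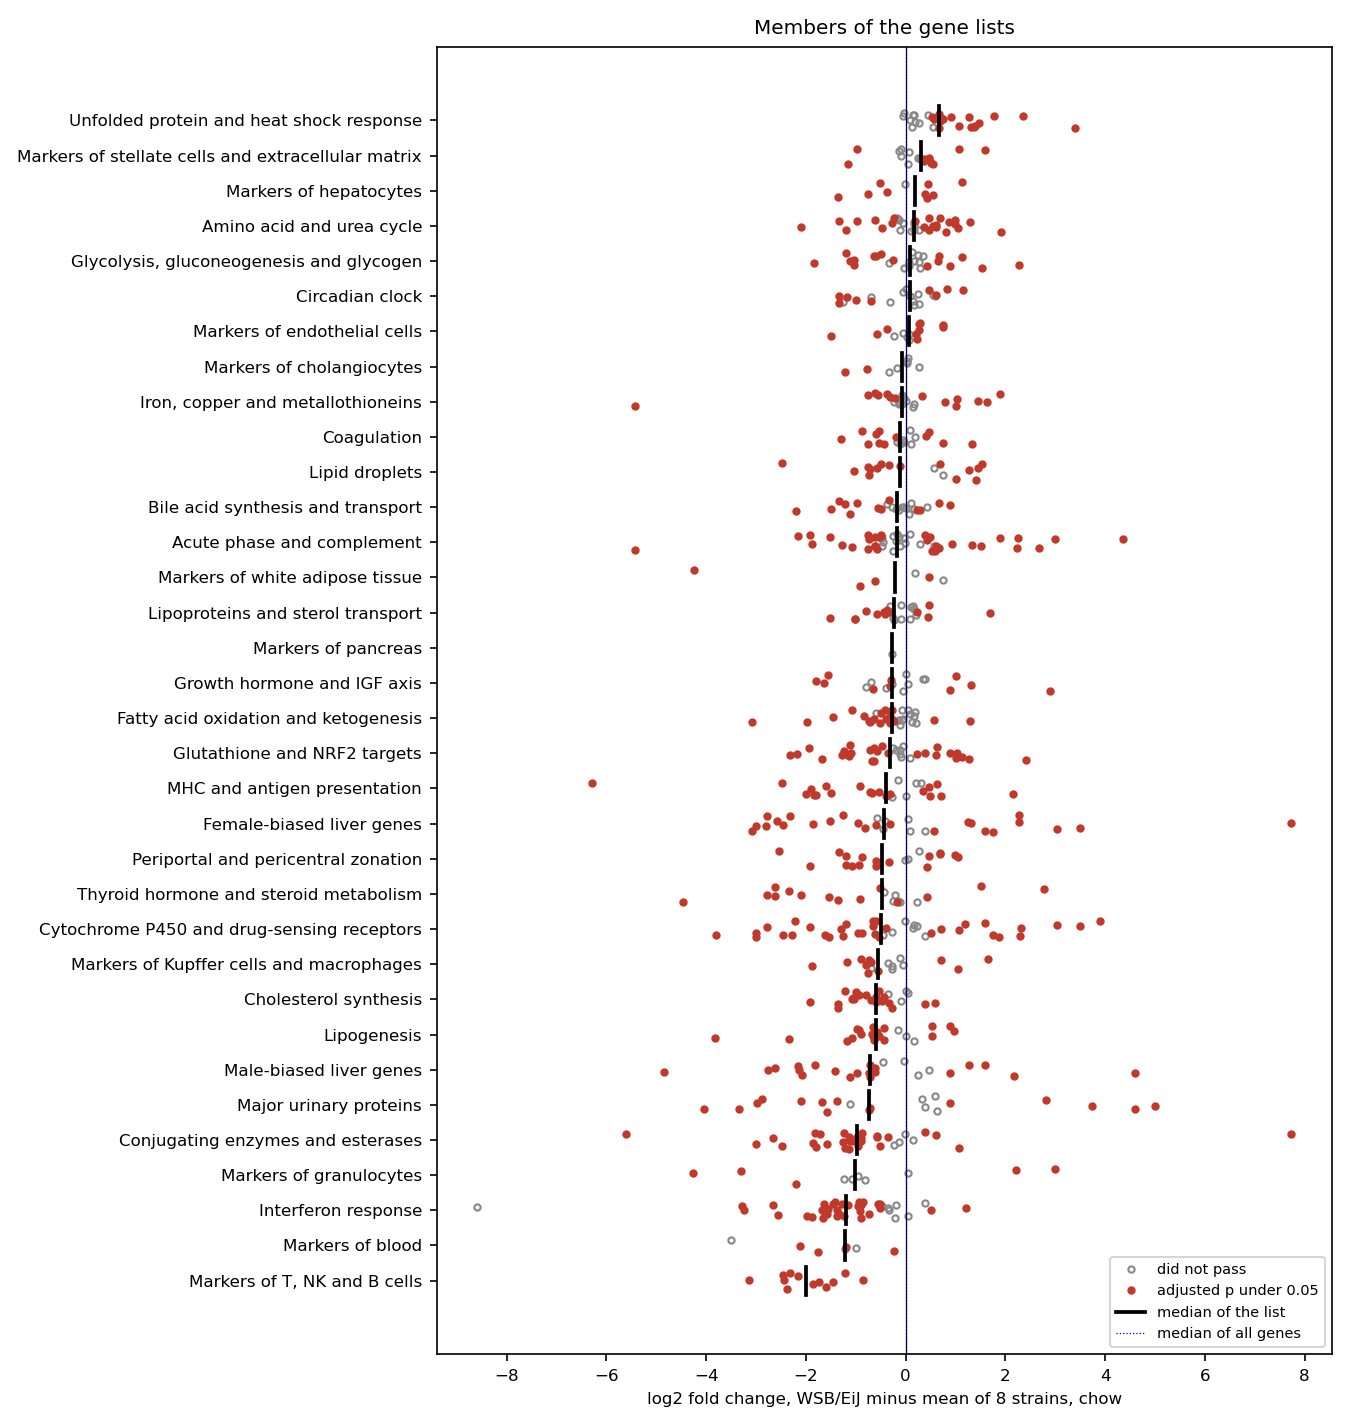
Log2 fold change of WSB/EiJ over the mean of 8 other strains on chow (x axis) for each tested member of each gene list (rows, ordered by median), filled where the adjusted p was under 0.05, with the list's median as a black bar and the median of all genes dotted. Lymphocyte, interferon and conjugating enzyme genes lie mostly to the left of 0, with medians of -2.01, -1.19 and -0.97, and the unfolded protein and heat shock list to the right, with a median of 0.67. The median of that last list was 0.21 without WSB/EiJ female 2 and male 3.

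Genes of fatty acid synthesis were mostly lower. Of 22 lipogenic genes 15 were lower and 4 higher (median -0.60), or 14 and 2 without female 2 and male 3, against 27.6% lower and 31.6% higher of all genes, and WSB/EiJ was the lowest strain in both sexes in 9 of them. Besides Scd1, Thrsp, a regulator of lipogenesis that responds to thyroid hormone and carbohydrate, was at 4.32, 2.68 and 4.05 CPM in the females and 2.19, 2.75 and 2.98 CPM in the males, against 4.18 to 69.2 CPM with a median of 12.9 (log2 fold change -2.35 ± 0.30, adjusted p = 1.34e-08). Elovl5, an elongase of polyunsaturated fatty acids, and Mogat1, a monoacylglycerol acyltransferase, had log2 fold changes of -1.18 and -1.08, the latter -0.69 without female 2 and male 3. Fasn, the fatty acid synthase itself, was not called: it was at 195, 70.9 and 147 CPM in the females and 72.1, 58.8 and 166 CPM in the males, against 38.7 to 198 CPM with a median of 114 (log2 fold change 0.014 ± 0.16, adjusted p = 0.954), well inside the range of the other strains, and its log2 fold change was -0.13 without female 2 and male 3. Low Scd1 thus stood beside a Fasn level for which no difference was detected.

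Of 24 genes of cholesterol synthesis and its control 18 were lower and 2 higher (median -0.59), 16 and 2 without female 2 and male 3. Sc5d, Msmo1 and Fdps, enzymes of the late and middle pathway, had log2 fold changes of -1.22, -1.36 and -1.36. Stard4, a sterol transfer protein under the control of the sterol sensor SREBP2, was at 14.5, 3.71 and 12.8 CPM in the females and 17.5, 14.1 and 4.72 CPM in the males, against 18.4 to 70.2 CPM with a median of 45.0, with no overlap (log2 fold change -1.91 ± 0.20, adjusted p = 1.45e-10). Female 2 and male 3 held the lowest values, and the log2 fold change was -1.51 without them.

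Fatty acid oxidation and ketogenesis showed 16 lower and 2 higher of 31 genes (median -0.28), which became 10 and 3 (median -0.083) without female 2 and male 3. Acot3, a peroxisomal acyl-CoA thioesterase, Cyp4a31, a fatty acid hydroxylase, and Fabp1, the fatty acid binding protein of liver, had log2 fold changes of -3.08, -1.98 and -1.44, all lower, and the coactivator Ppargc1a one of 1.29 (0.79 without the same libraries). On the high-fat diet this list held 10 lower and 8 higher genes. Of 17 lipid droplet genes 9 were lower and 6 higher, and without female 2 and male 3 the balance turned to 6 lower and 7 higher. Pnpla2, the triglyceride lipase ATGL, was higher, at 528, 834 and 250.4 CPM in the females and 243, 219 and 524 CPM in the males, against 63.3 to 685 CPM with a median of 148 (log2 fold change 1.41 ± 0.15, adjusted p = 1.9e-10). G0s2, the inhibitor of that lipase, was lower, at 18.2, 1.58 and 23.8 CPM in the females and 103, 177 and 5.83 CPM in the males, against 6.36 to 649 CPM with a median of 194 (log2 fold change -2.48 ± 0.57, adjusted p = 0.000334). In both genes female 2 and male 3 were among the farthest values, and without them the log2 fold changes were 0.93 and -1.93. Cidec and Plin4, droplet coat proteins, were higher, with log2 fold changes of 1.53 and 1.44, the latter 0.71 without the same pair. Cd36, a fatty acid transporter, was not called (log2 fold change -0.13, 0.095 without female 2 and male 3), although it was called lower without the NOD/ShiLtJ libraries (-0.38, adjusted p = 0.0389) and on the high-fat diet (-0.82, adjusted p = 0.00025).

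In lipoprotein metabolism 9 of 23 genes were lower and 4 higher, or 6 and 5 without female 2 and male 3, where 20.6% of all genes were lower and 21.3% higher. Apoa4, an apolipoprotein of triglyceride-rich particles, was higher, at 2618, 2397 and 2250 CPM in the females and 2287, 2363 and 1217 CPM in the males, against 73.9 to 2364 CPM with a median of 561 (log2 fold change 1.70 ± 0.20, adjusted p = 1.88e-09), and its strain mean was above those of CAST/EiJ (1701 CPM) and 129S1/SvImJ (1614 CPM). Pltp, which moves phospholipids between particles, had a log2 fold change of -1.01. Among 24 bile acid genes 9 were lower and 4 higher, or 7 and 2 without female 2 and male 3. Cyp7a1, the rate-limiting enzyme of bile acid synthesis, was at 31.4, 3.96 and 7.80 CPM in the females and 25.8, 8.45 and 1.01 CPM in the males, against 0.0991 to 323 CPM with a median of 48.4 (log2 fold change -2.19 ± 0.63, adjusted p = 0.00329), values that overlapped widely. Baat, which joins bile acids to taurine or glycine, Akr1d1, a steroid reductase of the pathway, and Slco1b2, an uptake transporter, had log2 fold changes of -1.22, -1.49 and -1.33, each the lowest of 9 strains in both sexes.

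Conjugating enzymes, which attach sulfate, glucuronate or acetyl groups, and carboxylesterases were lower in 26 of 34 genes and higher in 4 (median -0.97), or 22 and 4 without female 2 and male 3. The list thus moved against its most changed member, Sult1e1. Ugt3a2, a glycosyltransferase of steroids and drugs, was at 22.7, 17.7 and 25.1 CPM in the females and 26.9, 26.6 and 10.6 CPM in the males, against 12.7 to 445 CPM with a median of 312 (log2 fold change -3.00 ± 0.15, adjusted p = 2.16e-20). Its strain means were bimodal, with CAST/EiJ at 17.0 and PWK/PhJ at 30.4 CPM near WSB/EiJ and A/J highest at 409 CPM. Ces1g, a carboxylesterase, had a log2 fold change of -2.66. These families hold close paralogs, and the split of reads among them is uncertain.

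Of 40 cytochrome P450 and drug-sensing receptor genes 21 were lower and 12 higher. Cyp2b10, the classical target of the receptor CAR, was at 325, 766 and 284 CPM in the females and 0.774, 0.725 and 25.6 CPM in the males, against 0.0183 to 141 CPM with a median of 6.31 (log2 fold change 3.89 ± 0.31, adjusted p = 9.67e-14), and without female 2 and male 3 its log2 fold change was 1.8. Cyp39a1, an oxysterol hydroxylase, was at 256, 340.2 and 291 CPM in the females and 73.0, 55.8 and 85.0 CPM in the males, against 0.121 to 214 CPM with a median of 23.9 (log2 fold change 3.49 ± 0.12, adjusted p = 9.59e-26), and was the highest of 9 strains in both sexes. Cyp17a1, a steroid hydroxylase, had a log2 fold change of 3.03 with a strain mean below that of CAST/EiJ (602 CPM). Cyp2c40, a P450 that is higher in females, had a log2 fold change of -3.80. Cyp26a1, which degrades retinoic acid, had a log2 fold change of 2.30 on chow, and 1.12 without female 2 and male 3. Of 34 glutathione and NRF2 target genes 17 were lower and 10 higher, or 15 and 6 without female 2 and male 3, with Gsta3, Gstt1 and Gstm6, glutathione transferases, at -2.31, -2.17 and -1.93 and Akr1b7, an aldose reductase relative, at 2.42.

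In the growth hormone and IGF axis 10 of 19 genes were called, a share no higher than the 59.3% of all genes. Growth hormone binds its receptor on hepatocytes, which then secrete IGF1, and IGF1 circulates bound to IGFBPs and the acid-labile subunit. Of the 19 genes 6 were lower and 4 higher. Ghr, the growth hormone receptor, was at 86.8, 43.2 and 103 CPM in the females and 179.9, 212 and 49.996 CPM in the males, against 119 to 569 CPM with a median of 330.3 (log2 fold change -1.55 ± 0.17, adjusted p = 3.1e-10). The females and male 3 lay below all other mice, and males 1 and 2 within their range. Prlr, the prolactin receptor, had a log2 fold change of -1.63.

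Igf1 itself was at 221, 186 and 172 CPM in the females and 573, 678 and 427 CPM in the males. The 3 WSB/EiJ females lay below all other females, at 267 to 744 CPM, while the 3 males lay within the range of the other males, at 377 to 815 CPM. The females gave a log2 fold change of -1.31 and the males one of 0.018, and the difference between the sexes was called (male minus female 1.33 ± 0.21, adjusted p = 0.000109). Igfals, the acid-labile subunit, was at 25.4, 8.77 and 13 CPM in the females and 109, 89.7 and 14.7 CPM in the males, against 23 to 221 CPM in other females and 51.8 to 202 CPM in other males, and it too differed between sexes (male minus female 1.89 ± 0.46, adjusted p = 0.0241). Male 3 had a far lower Igfals level than males 1 and 2. The difference between sexes in Igfals kept its call without male 3 or female 1 and lost it without any 1 of the other 4 WSB/EiJ libraries. Igfbp1, a binding protein induced by fasting and stress, was at 1561, 9011 and 2764 CPM in the females and 364, 578 and 4970 CPM in the males, against 37.7 to 3406 CPM with a median of 348 (log2 fold change 2.90 ± 0.29, adjusted p = 7.34e-11), and without female 2 and male 3 at a log2 fold change of 1.35.

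**Figure D4:**
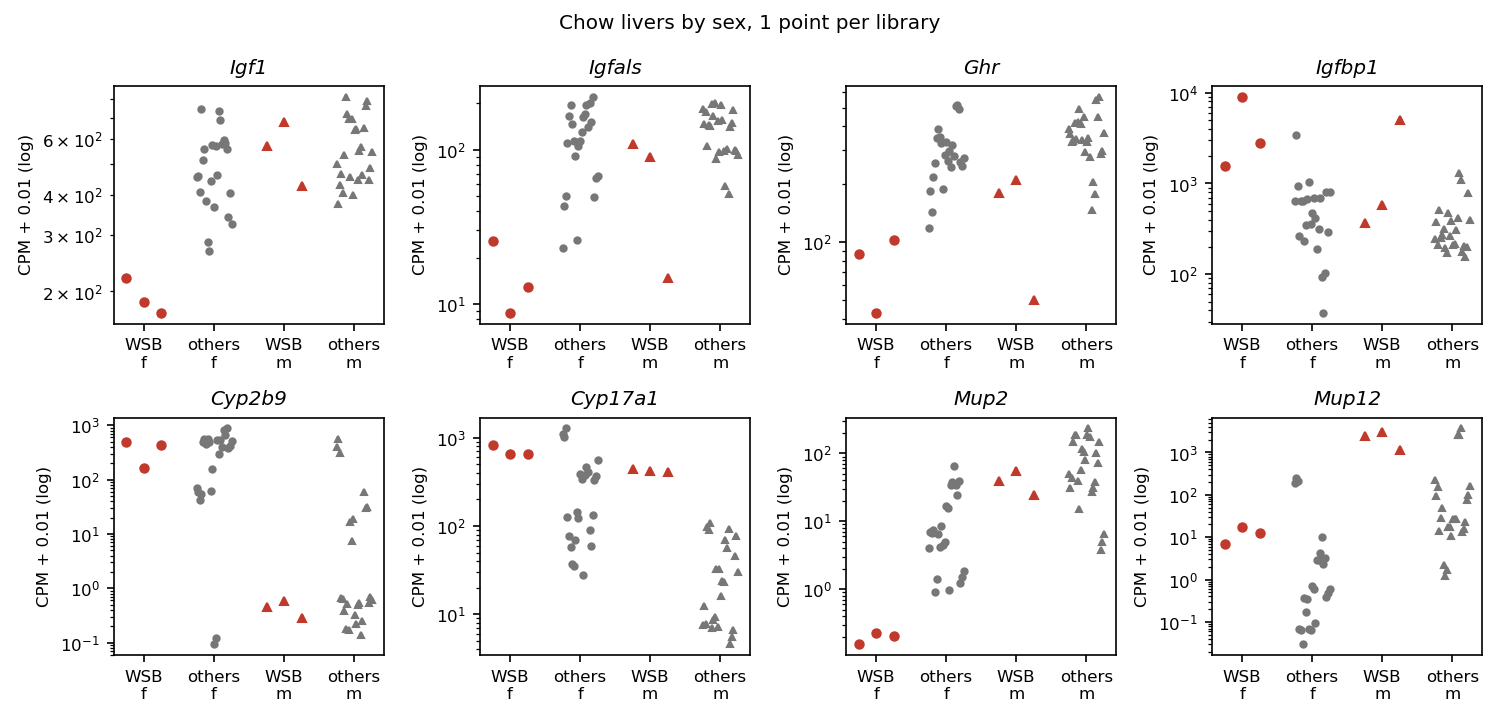
CPM (log axis, 0.01 added) of 8 genes in WSB/EiJ (red) and the other strains (grey) on chow, females (f, circles) and males (m, triangles) apart, 1 point per library. The 3 WSB/EiJ females lie below all other females for Igf1, Ghr and Mup2, and the 3 WSB/EiJ males above all other males for Cyp17a1.

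Of 24 genes known as male-biased in liver 15 were lower and 5 higher, and of 30 known as female-biased 14 were lower and 10 higher, or 8 and 6 without female 2 and male 3. On the high-fat diet 9 of the male-biased genes were higher and 10 lower, and 9 of the female-biased genes were higher and 11 lower. There 33.9% of all genes were higher and 31.2% lower. Hsd3b5, a male-specific steroid enzyme, was at 0.145, 0.0847 and 0.162 CPM in the females and 5.55, 4.39 and 7.13 CPM in the males, and the other males ranged from 3.00 to 226 CPM. Major urinary proteins, male-biased carriers of pheromones, form a cluster of nearly identical genes, and the split of their reads is uncertain. Of 20 such genes 10 were lower and 5 higher, with a median of -0.72, and 0.58 in males alone. On the high-fat diet 12 were higher and 5 lower, with a median of 0.89. Mup17 and Mup12 were higher (log2 fold changes 3.75 and 4.61), and the WSB/EiJ males were at 4713, 6509 and 2307 CPM for Mup17, above every other library, and at 2406, 3049 and 1172 CPM for Mup12. Mup2, Mup9 and Mup18 were lower (log2 fold changes -2.89, -3.33 and -1.67). The summed level of the family was 169.9 to 19272 CPM in WSB/EiJ and 75.9 to 33041 CPM in the others.

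The sex difference of the contrast was called in 175 genes (1.22%), 106 with a higher value in males (0.740%) and 69 with a lower one (0.482%). Called sex by sex, the contrast gave 7180 genes in females (50.1%) and 5303 in males (37.0%; higher in 20.1% of all genes), and 4217 were called in both with 1 direction. Without female 2 the females gave 4498 genes, and without male 3 the males gave 3016. Among autosomal genes of at least 1 CPM the highest differences, male minus female, were those of Mup18, Mup2 and Mup9 (5.6, 4.77 and 4.47). For Mup2 the WSB/EiJ females were at 0.145, 0.220 and 0.198 CPM, below all other females at 0.906 to 65.2 CPM, and the males at 38.6, 55.2 and 24.3 CPM, within the range of the other males. The lowest were those of Fosb, Fos and Cyp2b9. Fosb and Fos, immediate early transcription factors, were at 18.8, 0.440 and 188 CPM and 29.0, 2.47 and 576 CPM in the females, so that female 3 was by far the highest and female 1 next. Without female 3 the difference was -5.95 for Fosb and -2.31 for Fos, the second no longer called (adjusted p = 0.286). Cyp2b9, a female-biased P450, was at 499.8, 166 and 427 CPM in the females and 0.442, 0.576 and 0.269 CPM in the males, and the other males ranged from 0.126 to 566 CPM.

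The count of 175 depended on single libraries. It was 96 without female 2 and 1054 without male 3, 104 and 107 without males 1 and 2, 316 and 266 without females 1 and 3, and 273 without both female 2 and male 3. Igf1, Cyp17a1, Pparg, Mup2 and Cyp2b9 stayed called in every one of these fits. Pparg, a regulator of fat storage that is low in normal hepatocytes, was at 7.46, 5.79 and 7.08 CPM in the females and 1.22, 0.960 and 0.723 CPM in the males, and its log2 fold changes were 0.07 for females and -1.91 for males (male minus female -1.98 ± 0.38, adjusted p = 0.00208).

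Genes of the unfolded protein and heat shock responses were higher or not called in WSB/EiJ. Of 28 listed genes 16 were higher and none lower (27.6% of all genes were), with a median of 0.67, and on the high-fat diet 25 were higher and none lower with a median of 1.07. Without female 2 and male 3, however, 5 of the 28 were called higher, with a median of 0.21, a share near the 21.3% of all genes in that fit. Hspa1a, an inducible heat shock chaperone, was at 3.11, 1.0502 and 36 CPM in the females and 2.72, 6.70 and 7.82 CPM in the males, against 0.0534 to 26.1 CPM with a median of 0.693 (log2 fold change 3.40 ± 0.33, adjusted p = 2.59e-11). Female 3 was highest, and without it the log2 fold change was 2.05. Asns, asparagine synthetase, a target of the transcription factor ATF4, was at 1.16, 4.51 and 1.98 CPM in the females and 6.85, 8.23 and 39.0 CPM in the males, against 0.184 to 17.4 CPM with a median of 1.12, with male 3 highest, and its log2 fold change of 2.35 became 1.37 without female 2 and male 3. Atf3, a stress-induced transcription factor, was at 6.88, 11.9 and 52.6 CPM in the females and 1.88, 4.67 and 4.20 CPM in the males, highest in female 3 as Fos was, with a log2 fold change of 1.77 that became 1.1 without female 3. Sdf2l1, an endoplasmic reticulum chaperone partner, was at 43.6, 5.15 and 114 CPM in the females and 6.94, 10.4 and 184 CPM in the males, and lost its call without the same pair (log2 fold change 1.47, and 0.26 with an adjusted p of 0.645 without them).

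Of 33 amino acid and urea cycle genes 15 were higher and 8 lower (median 0.18). Got1, the cytosolic aspartate aminotransferase, was at 1351, 3827 and 737 CPM in the females and 839.8, 968 and 2945 CPM in the males, against 81.8 to 1854 CPM with a median of 481 (log2 fold change 1.92 ± 0.20, adjusted p = 1.25e-10). Female 2 and male 3 were the highest, and the log2 fold change was 1.054 without them. Aass, of lysine breakdown, had a log2 fold change of 1.29 (0.76 without the same libraries), Oat, ornithine aminotransferase, one of -1.33, and Bhmt, which remethylates homocysteine, one of -2.09. Of 26 glycolysis, gluconeogenesis and glycogen genes 9 were lower (34.6%) and 7 higher (26.9%), shares near those of all genes. Slc37a4, the glucose-6-phosphate transporter of the endoplasmic reticulum, was at 605, 783 and 586 CPM in the females and 472, 418 and 726 CPM in the males, against 73.1 to 445 CPM with a median of 207 (log2 fold change 1.52 ± 0.11, adjusted p = 2.71e-15), and was above the range of all other libraries on the high-fat diet. Ppp1r3c and Ppp1r3b, glycogen-targeting subunits of a phosphatase, had log2 fold changes of -1.84 and -1.20. Of 20 genes with a known zone in the lobule 11 were lower and 6 higher. Glul, glutamine synthetase of the hepatocytes around the central vein, was at 386, 325 and 407 CPM in the females and 380.1, 319 and 142 CPM in the males, against 453 to 1384 CPM with a median of 705, with no overlap (log2 fold change -1.19 ± 0.12, adjusted p = 2.98e-11), and Cyp1a2 and Rgn, both pericentral, had log2 fold changes of -1.92 and -2.54. The pericentral Cyp2e1 was not called (-0.0073, adjusted p = 0.962). Of periportal genes Hal and Gls2 were higher (1.04 and 0.69), while Cyp2f2 was lower (-1.19). These 4 genes were added after their values were seen.

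Among 47 acute phase and complement genes 17 were lower and 16 higher, or 11 and 13 without female 2 and male 3. Orm3, an orosomucoid, was at 78.2, 141 and 80.9 CPM in the females and 89.5, 87.2 and 122 CPM in the males, against 0.189 to 137 CPM with a median of 5.24 (log2 fold change 4.36 ± 0.29, adjusted p = 2.77e-16), and Saa1, serum amyloid A, at 1582, 59.1 and 238 CPM in the females and 41.8, 111 and 859 CPM in the males, against 2.92 to 24271 CPM with a median of 30.1, with female 1 and male 3 highest. The log2 fold change of Saa1 was 2.68, and 1.64 without female 1 or 1.62 without male 3. Lcn2, an iron-siderophore binder, had a log2 fold change of 3.00. Hc, complement C5, had a log2 fold change of 0.68. The paralogs of hepcidin, the hormone that blocks iron export, went opposite ways. Hamp was at 1974, 2829 and 1170 CPM in the females and 1210, 1366 and 2811 CPM in the males, against 18 to 2145 CPM with a median of 699 (log2 fold change 1.90 ± 0.23, adjusted p = 2.94e-09), and Hamp2 at 0.887, 0.220 and 2.55 CPM in the females and 0.310, 0.235 and 0.118 CPM in the males, against 0.238 to 1266 CPM with a median of 18.5 (log2 fold change -5.42 ± 0.52, adjusted p = 1.59e-11). Reads of such close copies may be split unevenly, and the next lowest strains for Hamp2 were 129S1/SvImJ at 1.92 and NOD/ShiLtJ at 3.90 CPM. The metallothioneins Mt1 and Mt2, which bind zinc and copper, had log2 fold changes of 1.46 (0.82 without female 2 and male 3) and 1.63, in a list of 23 iron, copper and metallothionein genes of which 7 were higher and 7 lower, or 6 and 4 without female 2 and male 3.

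Of 20 thyroid hormone and steroid genes 11 were lower and 3 higher, or 10 and 1 without female 2 and male 3. Serpina7, the thyroxine-binding globulin, was at 2.35, 0.322 and 1.46 CPM in the females and 0.420, 0.213 and 0.0336 CPM in the males, against 0.275 to 89.2 CPM with a median of 15.1 (log2 fold change -4.46 ± 0.40, adjusted p = 2.39e-12), and Serpina6, the corticosteroid-binding globulin, at 16.0, 18.6 and 17.4 CPM in the females and 45.0, 32.8 and 9.65 CPM in the males, against 24.8 to 928 CPM with a median of 118 (log2 fold change -2.62 ± 0.29, adjusted p = 5.25e-10). Of 20 coagulation genes 8 were lower and 4 higher, with the anticoagulant Pros1 at 1.32, Klkb1, prekallikrein, at -1.28 and Serpind1, heparin cofactor II, at -0.88. Without female 2 and male 3 these log2 fold changes were 0.74, -0.79 and -0.40. Of 21 clock genes 5 were lower and 4 higher, and without female 2 and male 3 only 2 and 1, with Per3 at -1.33, and at -0.95 and no longer called without them (adjusted p = 0.0705). Fgf21, a hormone of the fasted liver, was at 15.1, 0.288 and 25.1 CPM in the females and 27.4, 43.7 and 9.46 CPM in the males, against 2.46 to 255 CPM with a median of 42.7, and its log2 fold change of -1.07 was not called without the same pair (-0.58, adjusted p = 0.281).

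Female 2 and male 3 shared a set of large deviations. In 198 genes both were at least 1 log2 unit above the other WSB/EiJ mice of their sex, and in 415 both were as far below. Ppp1r3g, a glycogen-targeting subunit of a phosphatase, was at 5.56, 209 and 29.1 CPM in the females and 3.32, 7.76 and 79.5 CPM in the males, Lepr, the leptin receptor, at 109, 493 and 45.1 CPM in the females and 5.24, 6.59 and 417 CPM in the males, and Setdb2, a histone methyltransferase gene, at 65.3, 688 and 51.8 CPM in the females and 19.2, 19.6 and 210.2 CPM in the males. Setdb2, Hao1 and Leap2 were chosen for these deviations after their values were seen. Hao1, glycolate oxidase, was at 84.7, 2.85 and 120.5 CPM in the females and 138, 136 and 8.27 CPM in the males, and Leap2, an antagonist of the ghrelin receptor, at 9.54, 0.491 and 6.47 CPM in the females and 13.8, 11.9 and 1.06 CPM in the males. In each of these 5 genes female 2 and male 3 were the 2 extreme values, above or below the other 4 mice. The log2 fold changes of Lepr and Ppp1r3g, 2.78 and 2.28, turned to -0.26 and -0.058 without them (adjusted p = 0.582 and 0.954), so that their calls rested on these libraries. Setdb2 was above the median of the other strains in all 6 mice.

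**Figure D5:**
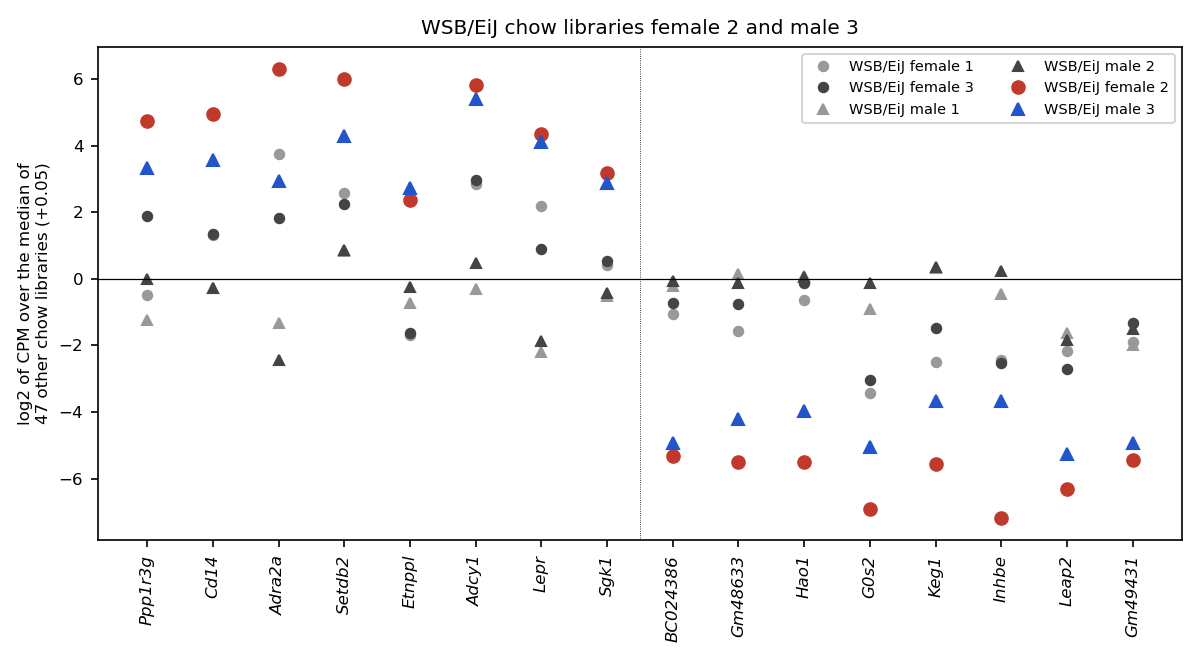
Log2 CPM (0.05 added) of the 6 WSB/EiJ chow libraries relative to the median of the 47 other chow libraries for the 8 genes with the highest and the 8 with the lowest deviation shared by female 2 (red) and male 3 (blue). Their 2 points lie apart from the other 4 WSB/EiJ points (grey and black); in 15 of the 16 genes both lie beyond the other 4, and for Adra2a male 3 lies below female 1.

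The WSB/EiJ contrast differed between the diets in 45 genes (0.314%), 19 with a higher value on the high-fat diet (0.133%) and 26 with a lower one, at 1367 genes with an unadjusted p under 0.05. Among genes of at least 1 CPM the highest differences, high-fat minus chow, were those of Cyp4a12b, Moxd1 and Serpina12. Serpina12, the adipokine vaspin, was at 0.308, 0.356 and 0.414 CPM in the females and 4.22, 4.05 and 2.13 CPM in the males on chow and 4.54, 1.18 and 5.66 CPM in the females and 7.63, 9.25 and 39.6 CPM in the males on the high-fat diet (high-fat minus chow 2.59 ± 0.45, adjusted p = 0.000756). The other strains were at 0.874 to 279.6 CPM with a median of 14.4 on chow and 0.459 to 161 CPM with a median of 22.3 on the high-fat diet. Moxd1, a monooxygenase relative, was at 0.111, 0.384 and 0.219 CPM in the males on chow and at 1.68, 17.4 and 31.2 CPM on the high-fat diet (high-fat minus chow 3.82 ± 0.84, adjusted p = 0.012). Cyp4a12b, a male-biased fatty acid hydroxylase, was at 23.3, 26.5 and 14.4 CPM in the males on chow, with no count in the 3 chow females, and its difference was near the threshold (high-fat minus chow 4.42 ± 1.1, adjusted p = 0.0474).

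The lowest differences were those of Fosb, Cyp2b13 and Cyp2c38. Cyp2c38, a P450, was at 195, 122 and 204 CPM in the females and 35.9, 8.70 and 5.56 CPM in the males on chow and at 149, 109 and 261 CPM in the females and 1.65, 0.417 and 0.618 CPM in the males on the high-fat diet (high-fat minus chow -2.22 ± 0.37, adjusted p = 0.000403), so that the males were lower on the high-fat diet. The difference in Fosb was -4.43, and -3.02 without chow female 3. Cyp2b13 was near the threshold (high-fat minus chow -2.26 ± 0.56, adjusted p = 0.0474), and without chow male 3 its difference was -0.97 and no longer called. Gpnmb was higher in WSB/EiJ on chow (1.66) and not on the high-fat diet (-0.076), a difference of -1.73 that was not called without chow male 3 or without chow female 2. The count of 45 was 182 without chow female 2 and male 3, 157 without chow female 3, 76 without chow male 2 and 495 without female 2 of the high-fat WSB/EiJ group.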

How the data were processed

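Bulk mRNA sequencing of mouse liver was analysed from the authors' deposited table of read counts per gene. The deposit labels these values with TMM, but all were whole numbers. They were used as raw counts, and TMM factors were computed from them. The submitters' processing notes name FastQC, STAR 2.73a and edgeR 3.24.3. The counting tool, strand setting, genome build and gene filter are not given in the sources used here. GENCODE M21 (GRCm38) named 14327 of the 14330 genes, and promoters came from RefSeq GRCm38.p6. Rows of unassigned reads were left out, and the library labelled 129S1/SvImJ female chow 1 was not used.

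The 53 chow libraries were fitted as 18 groups of strain and sex with edgeR 4.0.16 in R 4.3.3 (TMM, quasi-likelihood F test, 35 residual degrees of freedom), the 52 high-fat libraries likewise, and all 105 as 36 groups for the difference between diets. P-values were adjusted over 14330 genes by the Benjamini-Hochberg method at 0.05, and the standard error is the log2 fold change divided by the square root of F. Fitted fold changes use edgeR's shrinkage by a small prior count. limma 3.58.1 and DESeq2 1.42.0 were alternatives. On simulated data of 14330 genes with 200 changed, the chow contrast recovered 20% of 1.25-fold, 70% of 1.5-fold, 98% of 2-fold and 100% of 4-fold changes, and 6.49% of its calls were false. There an unchanged gene had 1 mean in all 9 strains, with spread between mice only. The simulation held no spread between strains and no libraries that stood apart. Its share of false calls is therefore no estimate for the 8491 calls on chow. Depth limits calls for genes of few counts, and intervals cover counting error only.

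Genes were named by rule: the 12 highest and 12 lowest log2 fold changes among protein-coding genes outside the range, a panel of 17 genes, up to 4 called members of each list with the largest change, the 3 highest and 3 lowest differences between sexes and between diets, and the longest runs of neighbours. The comparison, the lists and the panel were chosen with earlier results of these data known. Labels name separate mice. Some genes that met the rule are not reported here.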

Additional observations from a re-analysis of the deposited data

Results flagged for a closer look

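The WSB/EiJ contrast on chow differed between the sexes, by edgeR's test of the difference, in 14 of the genes named by rule. The differences in log2 fold change, male minus female, were -8.79 for Fosb, -6.00 for Fos, -4.38 for Cyp2b9, -2.15 for Kcnab1, -2.09 for Sult1e1, -1.98 for Pparg and -1.28 for Vwf, a clotting protein of endothelium. They were 5.6 for Mup18, 4.77 for Mup2, 4.47 for Mup9, 2.36 for Cyp17a1, 1.98 for Mup12, 1.89 for Igfals and 1.33 for Igf1. Those of Kcnab1 and Vwf were -0.80 and -0.20 without WSB/EiJ female 2 and no longer called (adjusted p = 0.46 and 0.873). That of Sult1e1 was near the threshold (adjusted p = 0.0466) and lost its call in 36 of 68 alternative fits. Those of Vwf, Igfals, Mup12, Fos and Kcnab1 lost theirs in 11, 7, 7, 4 and 3 of their alternative fits, and the others kept theirs. Without female 2 and male 3 the differences of Sult1e1 and Vwf were -1.74 and -0.44, not called (adjusted p = 0.178 and 0.442).

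The contrast differed between the diets, high-fat minus chow, by -4.43 for Fosb, -2.26 for Cyp2b13, -2.22 for Cyp2c38 and -1.73 for Gpnmb, and by 4.42 for Cyp4a12b, 3.82 for Moxd1, 2.59 for Serpina12, 1.43 for Mup12 and 0.96 for Sox9, a transcription factor of bile duct cells. Among the alternative fits run, that of Cyp2b13 lost its call in 15 of 26, Cyp4a12b in 14 of 26, Sox9 in 6 of 26, Mup12 in 5 of 26, Gpnmb in 3 of 25 and Moxd1 in 1 of 25, while Fosb, Cyp2c38 and Serpina12 kept theirs. Without chow female 2 and male 3 those of Cyp4a12b, Cyp2b13 and Gpnmb were 4.31, -1.002 and -1.15, not called (adjusted p = 0.0723, 0.484 and 0.131).

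The library that was left out, labelled a 129S1/SvImJ chow female, held the Y-linked gene Ddx3y at 60.4 CPM and Xist, the RNA of the inactive X chromosome, at 0.923 CPM. The 53 other female libraries had 0 to 0.363 CPM of Ddx3y and 185.7 to 430.0 CPM of Xist, and the 52 male libraries 31.9 to 82.1 and 0.0516 to 2.41 CPM.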

How the results depend on the processing

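The count of 8491 genes on chow was 4571 at an absolute log2 fold change of at least 0.5 and 24 with the strain as the unit, and on the high-fat diet 4659 and 86 in place of 9339. Leaving out 1 library gave 7093 to 8703 genes on chow, 4498 (without WSB/EiJ female 2) to 7469 in females, 3016 (without male 3) to 5579 in males, 8516 to 9435 on the high-fat diet, and 158 to 198 genes outside the range. Males without female 2 and male 3 gave 3360. The difference between sexes was called in 324 genes by DESeq2, 271 with all 36 groups in 1 fit, 273 without female 2 and male 3, 356 without these and C57BL/6J male 3, and 96 to 1054 without 1 library. The difference between diets was called in 76 genes by limma, 112 by DESeq2, 94 without CAST/EiJ, 182 without female 2 and male 3, and 33 to 495 without 1 WSB/EiJ library, the only single libraries left out for it. The fits without 2 or 3 libraries were chosen after seeing the data. The log2 fold change of Fasn turned to -0.10 with limma and with the strain as the unit, -0.031, -0.032 and -0.033 without A/J, DBA/2J and C57BL/6J, -0.13 and -0.14 without the 2 and 3 libraries, and ran from -0.28 to 0.17 without 1. Cd36, not called, turned to 0.13 without NZO/HlLtJ and to 0.095 and 0.10 without the 2 and 3 libraries, and was called at -0.38 without NOD/ShiLtJ (adjusted p = 0.0389). Lepr turned to -0.26 and -0.28, and Ppp1r3g to -0.058 and -0.070, without the same libraries. Sdf2l1 ran from -0.0038 to 1.74 without 1 library, lowest without male 3. The cause was not tested. No paired analysis was possible because the labels give no replicate numbers that could pair libraries. Genes with few counts, such as Mael, are limited by depth.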
